A study of Aspergillus glaucus with 6 samples.

Results

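Culture time in high salt was compared between 84 h and 36 h in 3 M sodium chloride (NaCl) in Aspergillus glaucus strain CCHA, a salt-tolerant filamentous fungus. Genes were taken as risen or fallen when their level at 84 h was at least 4-fold above or below that at 36 h. Of 6320 genes with enough reads to be compared, 528 rose and 224 fell, out of 8441 genes listed in the series. The 752 genes were then placed against the culture without added NaCl at 84 h, to see which of them stood at its level. The groups used are 3 M NaCl for 84 h and 3 M NaCl for 36 h, with 1 M NaCl for 84 h, 1 M NaCl for 36 h, 4 M NaCl for 84 h and 0 M NaCl for 84 h for context. All are mycelium of the same strain, each time is the length of treatment, and each group is 1 library. How much cultures of 1 condition vary is therefore not known, and no p-value was computed.

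A fungus moved into concentrated salt loses water and takes up sodium. Filamentous fungi and yeasts are known to answer through a stress-activated kinase cascade, the high osmolarity glycerol pathway, by pumping sodium out and by storing glycerol and other small solutes that balance the outside. Growth usually slows at first and resumes once the cells have adjusted. Gene names do not come with the IDs in the deposited files, and 0 of the 8441 IDs matched the 11428 genes that RefSeq lists for strain CBS 516.65. The roles of the genes below are therefore not known here, no markers of spores or fruiting bodies could be read, and genes are described by their levels. Only 4 IDs are named, by a fixed rule.

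Library totals ran from 16371771 to 18376857 reads, and between 8138 and 8282 genes had a read. Levels are counts scaled to library size (CPM), made comparable between libraries by TMM factors, which assume that most genes do not differ. A count of 3 corresponds to between 0.155 and 0.185 CPM. By the number of genes 4-fold apart, 3 M at 36 h had 4 M at 84 h as its nearest library (140 of 5908 genes compared), and 3 M at 84 h had 1 M at 36 h (276 of 6367). The pair of 3 M libraries, with 752, took place 11 of 15 when the pairs of libraries were ordered from most to least alike. Since each condition has 1 library, culture time and a difference between single cultures cannot be told apart, nor can an exchange of the labels of the 3 M libraries, which would turn the time differences in 3 M round.

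The risen genes were 8.35% of the genes tested and held 15.1% of all counts in 3 M at 84 h, against 1.22% at 36 h. The fallen genes were 3.54% of the genes tested and held 1.39% of counts at 84 h, against 7.43% at 36 h. These libraries chose the genes, so the order of each pair of shares follows from the choice. In 1 M the risen genes held 15.4% of counts at 84 h and 10.9% at 36 h. They held 12.4% in 0 M and 1.07% in 4 M, both at 84 h. In the same order, the fallen genes held 1.76%, 3.52%, 2.82% and 6.19%. Of the 6320 genes, 4130 (65.3%) differed by no more than 2-fold between the times, and the median log2 difference was 0.005. Risen genes made up 70.2% of the 752, a split that depended on the scaling. With libraries scaled by total counts, which shifted the median of all genes by 0.23 on the log2 scale, 626 genes were 4-fold higher and 148 lower, so that risen genes made up 80.9%.

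**Figure D1:**
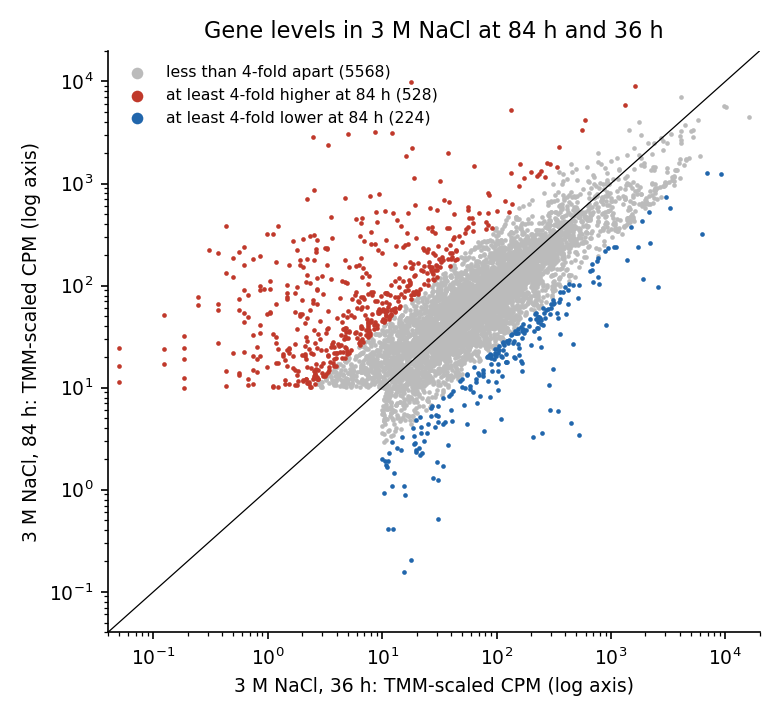
Level of each of the 6320 genes in 3 M NaCl at 84 h (vertical axis) and at 36 h (horizontal axis), in TMM-scaled CPM on log axes, 1 library each, with values under 0.05 CPM drawn at 0.05. The 528 risen genes (red) spread further from the line of equal levels than the 224 fallen genes (blue), and many risen genes sit under 1 CPM at 36 h.

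The size of the difference varied widely among the risen genes. There were 260 between 4-fold and 8-fold, 99 between 8-fold and 16-fold, 96 between 16-fold and 64-fold, and 73 above 64-fold. The 73 genes above 64-fold had a median level of 197 CPM at 84 h and 1.17 CPM at 36 h. The 260 genes in the lowest band had a median level of 53.2 CPM at 84 h and 10.3 CPM at 36 h. Both levels come from the libraries that define the rise. A large rise therefore goes with a low level at 36 h and a high level at 84 h by the choice of genes. At 36 h, 58 risen genes lay under 1 CPM and 3 of these had no read. They were all 58 of the genes tested that lay under 1 CPM at 36 h, since the filter then requires 10 CPM at 84 h. At 84 h all 528 were at 10 CPM or above, as the filter requires of a risen gene.

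The fallen genes were mostly near the 4-fold bound. Of the 224, 177 differed between 4-fold and 8-fold, 24 between 8-fold and 16-fold, 20 between 16-fold and 64-fold, and 3 by more than 64-fold. Their median level was 20.5 CPM at 84 h and 122 CPM at 36 h. At 84 h 7 fallen genes were under 1 CPM, all 7 of the genes tested that were, by the same filter. None was without a read, so a fallen gene was usually still measurable. Around the bound itself, 65 genes were between 4-fold and 4.5-fold higher and 80 between 3.5-fold and 4-fold higher, and 58 and 60 were lower by the same amounts. The members nearest the bound had log2 differences of 2.001 and -2.0017, and the nearest genes outside it had 1.9997 and -1.9932, so membership at the edge is arbitrary.

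Much of the read share of the risen genes came from a few abundant transcripts. The 10 risen genes with most counts at 84 h took 5.27% of the library at 84 h and 0.387% at 36 h. At 84 h they held 34.9% of the counts of all risen genes. The most abundant risen gene, singled out after its values were seen, had 192836 counts in 3 M at 84 h and 287 in 3 M at 36 h. It had 204165 counts in 1 M at 84 h and 201642 in 1 M at 36 h, 316 in 4 M at 84 h and 130903 in 0 M at 84 h. This transcript alone was 1.05% of all reads in 3 M at 84 h and was high in every library except 3 M at 36 h and 4 M at 84 h. The fallen genes were concentrated too, since the 10 with most counts at 36 h took 0.588% of the library at 84 h and 3.56% at 36 h. The most abundant fallen gene at 36 h, also singled out afterwards, had 24056 counts in 3 M at 84 h and 148390 in 3 M at 36 h. It had 92862 counts in 4 M at 84 h, 8583 in 1 M at 84 h, 22161 in 1 M at 36 h and 3361 in 0 M at 84 h. After its fall it was still above the 0 M level by a log2 difference of 2.68 (exact 95% interval 2.63 to 2.73).

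The main question was which of these genes stood at the 0 M level at 84 h. A gene was placed at that level when its log2 difference from the 0 M library lay between -1 and 1, that is within 2-fold. By this rule 282 of the 528 risen genes (53.4%) were at the 0 M level at 84 h, 61 (11.6%) were still below it and 185 (35.0%) were above it. The number at the level turned on the bound, with 164 (31.1%) for a 1.5-fold bound and 389 (73.7%) for a 3-fold bound. Over all 6320 genes tested, 83.3% were at the 0 M level in 3 M at 84 h, 8.1% below and 8.59% above. The share of risen genes at the level was thus under that of the genes tested as a whole, and of those off the level, more were above it than below. The class shares the 3 M library at 84 h with the choice of members, which favours genes that are high in that library, so it is a description and carries no test.

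Most risen genes had been well under the 0 M level at 36 h. At that time 451 of the 528 were more than 2-fold below it, 64 were within 2-fold of it and 13 were above it. Of all genes tested, 15.7% were below, 72.4% within 2-fold and 11.9% above. The series has no 0 M library of 36 h. Each level at 36 h was therefore set against 0 M at 84 h, from which it differs in time as well as in salt. All 282 genes at the level at 84 h came from below, as a 4-fold rise that ends within 2-fold must, and 10.8% of all genes tested went this way. Their median log2 difference from 0 M was 0.32 at 84 h (quartiles -0.09 and 0.64) and -2.73 at 36 h (-4.48 and -2.02). Of the others that began below, 61 closed a median of 70.0% of the log2 distance to 0 M and stayed below, and 108 passed the level and ended more than 2-fold above it. The 64 genes that began at the level and the 13 that began above it all ended above it, as a 4-fold rise from there requires.

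**Figure D2:**
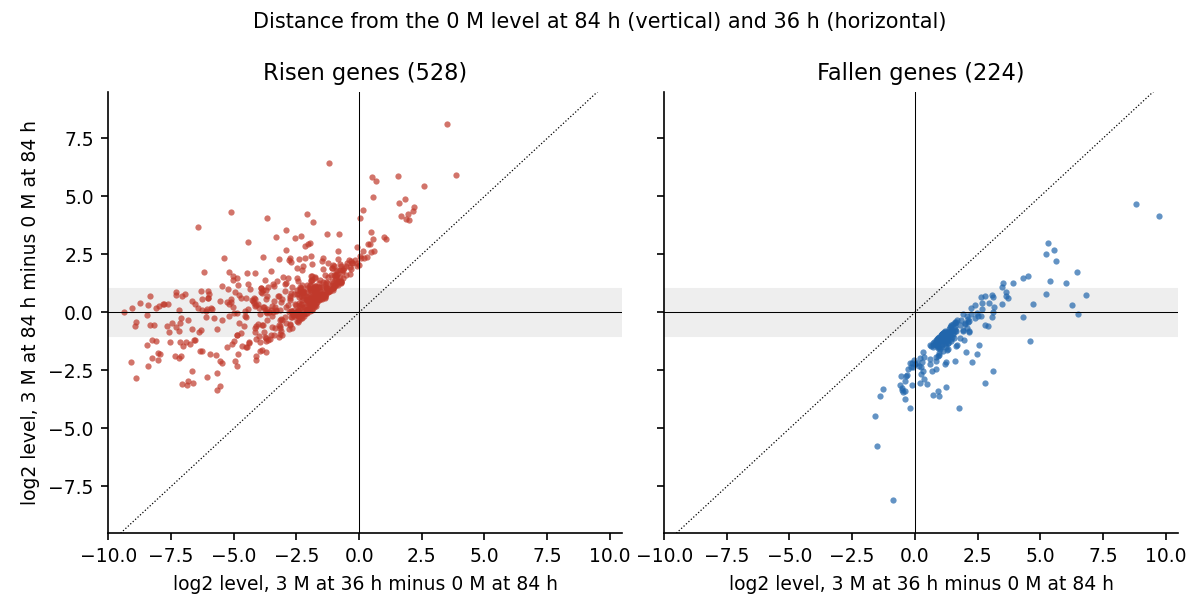
Log2 difference from the 0 M library at 84 h of each risen gene (left, red, 528) and fallen gene (right, blue, 224), in 3 M at 84 h (vertical axis) and in 3 M at 36 h (horizontal axis). The grey band marks levels within 2-fold of 0 M at 84 h and the dotted line marks no difference with time. It holds 282 risen genes, which lie to the left of 0 at 36 h, and 88 fallen genes, which lie to the right.

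Counting error was small beside the 2-fold bound for most of these genes. The exact 95% interval of the ratio to 0 M lay wholly within 2-fold for 246 of the 282 risen genes at the level, wholly beyond 2-fold for 57 of the 61 below it and for 160 of the 185 above it. The share at the level did not fall with the size of the rise in any steady way. It was 56.5% for rises of 4-fold to 8-fold, 50.5% for 8-fold to 16-fold, 42.7% for 16-fold to 64-fold and 60.3% above 64-fold. All 73 genes that rose above 64-fold had begun more than 2-fold below 0 M.

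AG05356.1 was the risen gene with the largest difference among those at the 0 M level. It stood at 2360 CPM in 3 M at 84 h and 3.39 CPM in 3 M at 36 h, from 45649 and 55 counts. Its log2 time difference was 9.40 (exact 95% counting interval 9.06 to 9.85). In 1 M it stood at 5040 CPM at 84 h and 1930 CPM at 36 h. The other libraries of 84 h gave 5.79 CPM (4 M) and 2350 CPM (0 M). It was thus high in 4 libraries and low in 3 M at 36 h and 4 M at 84 h, and its level in 3 M at 84 h differed from 0 M by a log2 value of 0.01 (-0.01 to 0.03).

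AG00355.1 had the largest rise among genes still below the 0 M level. It stood at 65.9 CPM in 3 M at 84 h and 0.37 CPM in 3 M at 36 h, from 1272 and 6 counts, a log2 difference of 7.09 (6.35 to 8.92). The library of 4 M at 84 h gave 0.445 CPM and that of 0 M at 84 h 150 CPM. In 1 M it stood at only 8.65 CPM at 84 h and 5.56 CPM at 36 h. Its level in 3 M at 84 h was thus below that of 0 M, by a log2 difference of -1.18 (-1.28 to -1.09), but above that of both 1 M libraries.

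The risen gene with the largest difference of all ended above the 0 M level. This gene, singled out after its values were seen, had 2860 CPM in 3 M at 84 h and 2.47 CPM in 3 M at 36 h, a log2 difference of 10.11 (9.73 to 10.66). It had 1600 CPM in 1 M at 84 h, 673 CPM in 1 M at 36 h, 3.95 CPM in 4 M at 84 h and 220 CPM in 0 M at 84 h. Against 0 M it moved to a log2 difference of 3.70 at 84 h, against -6.41 at 36 h. It had its highest level of the 6 libraries in 3 M at 84 h.

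A smaller part of the fallen genes ended at the 0 M level. Of the 224, 88 (39.3%) were within 2-fold of 0 M at 84 h, 14 (6.25%) were still above it and 122 (54.5%) were below it. At 36 h 153 of them had been more than 2-fold above 0 M, 67 within 2-fold of it and 4 below it. All 67 that began at the level were below it at 84 h, as a 4-fold fall from within 2-fold requires, and 51 of the 153 that began above it passed to below. The 51 had a median log2 difference from 0 M of -1.23 at 84 h and 1.25 at 36 h. The 88 at the level all came from above it, as 8.42% of all genes tested did. For the 88, the median was -0.58 at 84 h and 1.67 at 36 h. The exact 95% interval lay wholly within 2-fold for 53 of the 88 at the level, and wholly beyond it for 101 of the 122 below. How many were at the level turned on the bound and the scaling. With a 3-fold bound 155 of the 224 (69.2%) were at the level, with a 1.5-fold bound 36 (16.1%), and with libraries scaled by total counts 48 of 148 (32.4%).

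**Figure D3:**
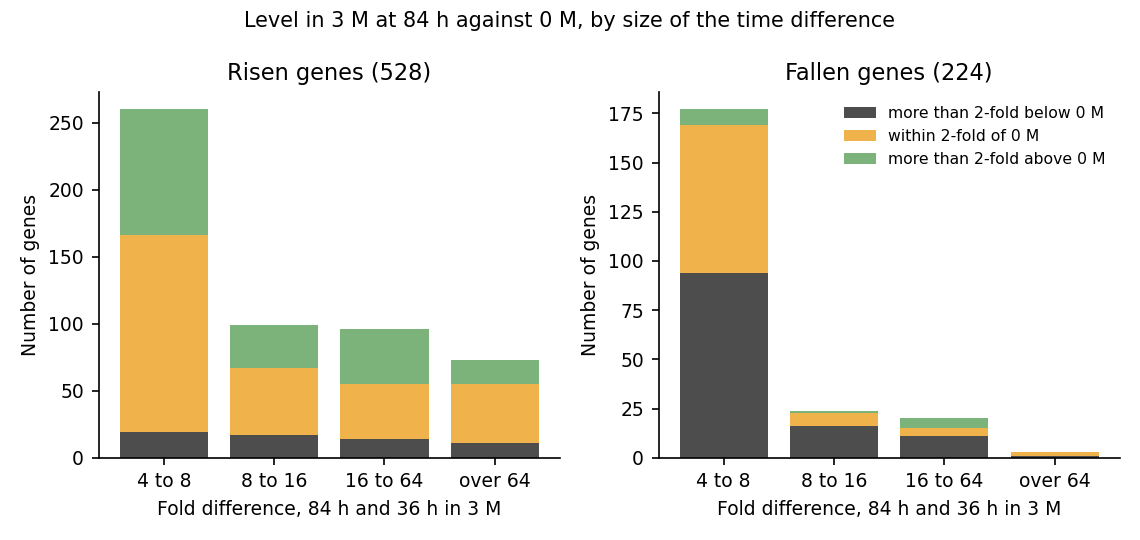
Number of risen genes (left) and fallen genes (right) by the fold difference between 84 h and 36 h in 3 M NaCl, divided by their level in 3 M at 84 h against 0 M at 84 h. Of the 260 risen genes in the lowest band 147 were at the 0 M level, and of the 177 fallen genes in that band 75 were at the level and 94 below it.

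AG02899.1 had the largest fall among genes at the 0 M level. It stood at 4.5 CPM in 3 M at 84 h and 444 CPM in 3 M at 36 h, from 87 and 7199 counts, a log2 difference of -6.59 (-6.95 to -6.32). At 84 h the level in 4 M was 349 CPM and the level without salt 4.8 CPM. In 1 M it stood at 26.9 CPM at 84 h and 164 CPM at 36 h, a log2 difference of -2.60 (-2.75 to -2.47). Its level was thus lower at the later time in both salt concentrations, and in 3 M it ended within counting error of 0 M (log2 difference -0.09, interval -0.54 to 0.36).

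AG04473.1 had the largest fall among genes still above the 0 M level. It stood at 6.11 CPM in 3 M at 84 h and 293 CPM in 3 M at 36 h, from 118 and 4749 counts. It stood at 800 CPM in 4 M at 84 h, 0.562 CPM in 1 M at 84 h, 0.811 CPM in 1 M at 36 h and 0.231 CPM in 0 M at 84 h, the last from 4 counts. It was abundant in 3 M at 36 h and 4 M at 84 h, near the detection limit in 1 M and 0 M, and in between in 3 M at 84 h. After a log2 time difference of -5.56 (-5.86 to -5.32) it was still above 0 M by 4.17 (3.33 to 6.62).

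The largest fall of all, in a gene singled out after its values were seen, ended far below the 0 M level. It had 67 counts in 3 M at 84 h and 8451 in 3 M at 36 h, or 3.47 and 522 CPM, a log2 difference of -7.19 (-7.60 to -6.89). It had 35.6 CPM in 4 M at 84 h and 964 CPM in 0 M at 84 h. In 1 M it had 1430 CPM at 84 h and 311 CPM at 36 h, a log2 difference of 2.20 (2.16 to 2.24), so the time difference in 1 M had the opposite sign to that in 3 M. Its lowest level of the 6 libraries was in 3 M at 84 h.

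**Figure D4:**
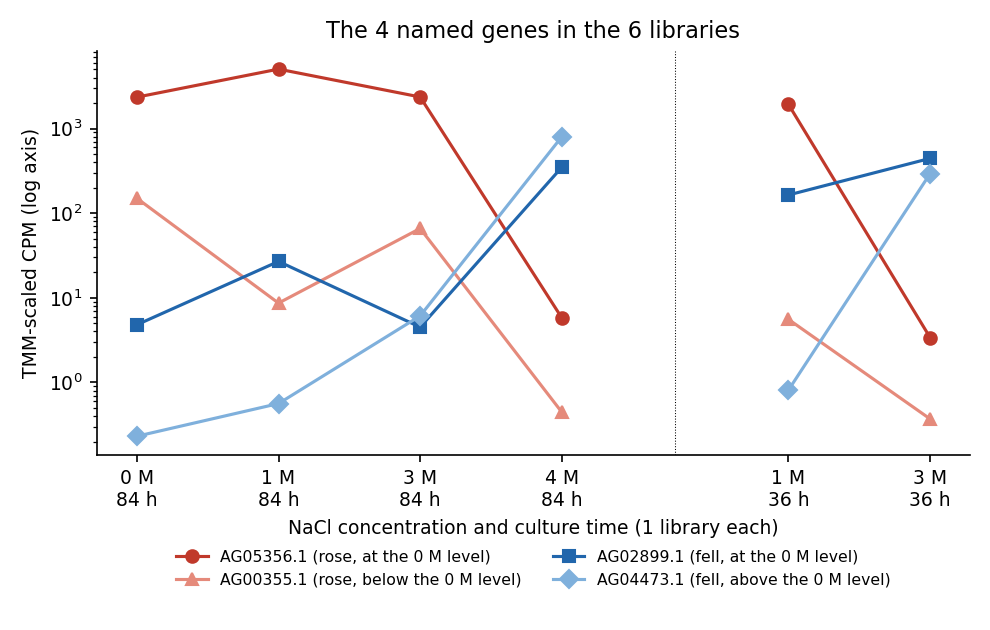
TMM-scaled CPM on a log axis of the 4 named genes in the libraries of 84 h (left of the dotted line, by NaCl concentration) and 36 h (right), with 1 point per library and lines joining concentrations at 1 time. AG05356.1 stands at 2360 CPM in 3 M at 84 h and 2350 CPM in 0 M, against 3.39 CPM in 3 M at 36 h, and AG04473.1 stands at 6.11 CPM in 3 M at 84 h, against 293 CPM in 3 M at 36 h.

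The 4 libraries that took no part in choosing the members show where these genes stood elsewhere. The risen genes had a median level of 81.3 CPM in 1 M at 84 h, 46.8 CPM in 1 M at 36 h, 5.2 CPM in 4 M at 84 h and 46.6 CPM in 0 M at 84 h. In 3 M their median was 72.7 CPM at 84 h and 5.89 CPM at 36 h. Among the 4 libraries, 4 M at 84 h was the lowest for 461 of the 528 risen genes (87.3%), as it was for 31.1% of all genes tested. In 4 M against 0 M the median log2 difference of the risen genes was -2.90 (quartiles -4.73 and -1.33), beside 0.12 (-0.56 and 0.61) over all genes tested. A decrease of 4-fold or more in 4 M, relative to 0 M, was found for 330 of the 528 (62.5%), as for 8.51% of all genes tested. An increase of that size was found for 10 (1.89%), beside 3.05% of all genes tested.

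The fallen genes showed the opposite order less markedly. Their median level was 23.3 CPM in 1 M at 84 h, 38.5 CPM in 1 M at 36 h, 86.4 CPM in 4 M at 84 h and 45.7 CPM in 0 M at 84 h. In 4 M against 0 M their median log2 difference was 0.74 (quartiles 0.05 and 1.46), and 46 of 224 (20.5%) were higher in 4 M by 4-fold or more, beside 3.05% of all genes tested. A further 16 (7.14%) were lower by as much, near the 8.51% of all genes tested. Of the 4 libraries the rule did not use, 4 M was the highest for 149 of the 224 (66.5%), as it was for 41.0% of all genes tested. The library of 1 M at 84 h was the lowest for 135 (60.3%), beside 31.1%. The low level of the fallen genes in 3 M at 84 h was thus nearer to that of 1 M than of 0 M at 84 h, and 134 of the 224 (59.8%) were within 2-fold of 1 M, as were 82.7% of all genes tested, against the 88 within 2-fold of 0 M.

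**Figure D5:**
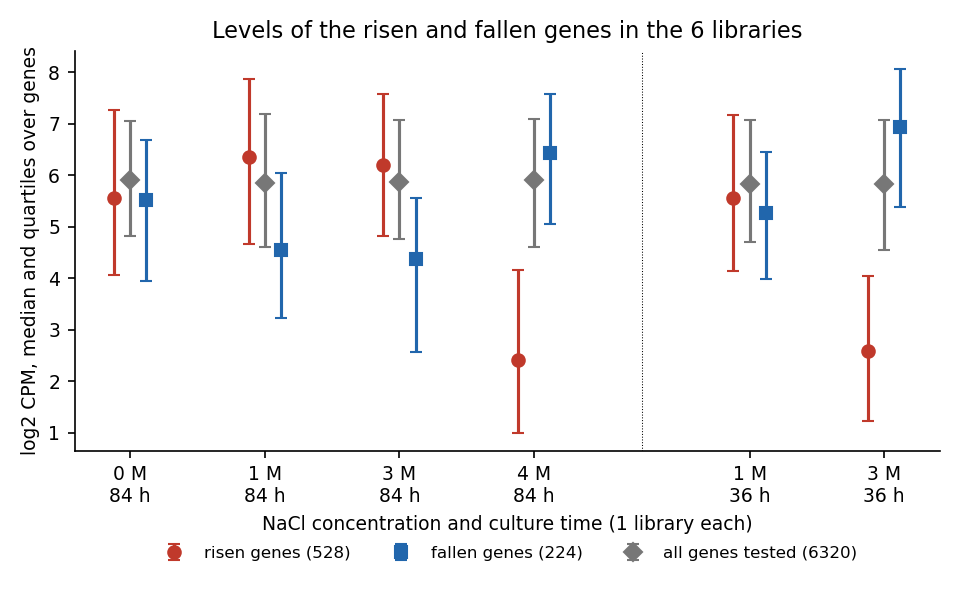
Median log2 CPM with quartiles over genes for the risen genes (red), the fallen genes (blue) and all genes tested (grey) in each library, with 84 h left of the dotted line and 36 h right. The median of the risen genes is 6.19 in 3 M at 84 h, against 2.59 in 3 M at 36 h, and 2.41 in 4 M, and that of the fallen genes is 4.36 in 3 M at 84 h, against 6.93 in 3 M at 36 h.

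The classes differed in how low they were in 4 M. All 61 risen genes still below the 0 M level at 84 h were also 4-fold or more below it in 4 M, with a median log2 difference from 0 M of -7.24 (quartiles -8.45 and -4.81). The median was -3.19 for the 282 genes at the level, of which 196 were lower by 4-fold or more, and -1.32 for the 185 above it, of which 73 were. Over all genes tested, 174 of the 512 below the level in 3 M at 84 h were lower in 4 M by 4-fold or more, 286 of the 5265 at it and 78 of the 543 above it. The genes still below were the most abundant of the risen genes without salt, with a median of 231 CPM in 0 M, beside 50.5 CPM for those at the level and 18.9 CPM for those above. They were also below 0 M in 1 M at 36 h, by a median log2 difference of -1.50. The classes and these differences share the 0 M library, and a high value in it favours the class below. A 4-fold rise that ends below the level also requires a start far below it in 3 M at 36 h, the library nearest to 4 M. The median log2 start was -5.69 for the 61 genes, -2.73 for the 282 and -1.27 for the 185. The genes tested as a whole had no such requirement, so the order of the 3 medians is a description. Among the fallen genes, all 14 still above the 0 M level were 4-fold or more above it in 4 M, with a median log2 difference of 4.58. Of the 543 genes above the level among all genes tested, 112 were. A 4-fold fall that ends above the level likewise requires a start far above it in 3 M at 36 h (median log2 difference 5.34), so this too is a description.

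Time in 1 M NaCl, measured in libraries that the rule did not use, gave smaller differences for the same genes, which were chosen for a large difference in 3 M. In 1 M the median log2 difference between 84 h and 36 h was 0.58 for the risen genes (quartiles -0.23 and 1.53) and -0.75 for the fallen genes (-1.31 and -0.19), beside 0.00 (-0.48 and 0.46) over all genes tested. Of the 528 risen genes, 85 (16.1%) were at least 4-fold higher at 84 h in 1 M, beside 2.74% of all genes tested, and 37 (7.01%) were lower by 4-fold or more, beside 2.71%. Of the 224 fallen genes, the 1 M difference was a 4-fold decrease or more for 23 (10.3%) and as large an increase for 16 (7.14%). The difference in 1 M was above 0 for 367 risen genes (69.5%), beside 49.9% of all genes tested, and below 0 for 175 fallen genes (78.1%), beside 50.1%. About the 0 M level, the risen genes had a median log2 difference of -0.14 in 1 M at 36 h. There 351 of the 528 (66.5%) were within 2-fold of 0 M at 84 h, a smaller share than the 88.1% of all genes tested.

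Many genes off the 0 M level in 3 M at 36 h were within 2-fold of it at 84 h without a 4-fold difference in time. Of the 6320 genes, 992 (15.7%) were more than 2-fold below 0 M in 3 M at 36 h, and at 84 h 683 of these were at the level, 201 still below and 108 above. The 451 risen genes among them include all 108 that passed to above. Of the 541 that did not rise 4-fold, 401 were at the level at 84 h and 140 below. On the other side, 754 genes (11.9%) were more than 2-fold above 0 M at 36 h, and 532 of these were at the level at 84 h, 171 still above and 51 below. The 51 are all among the fallen genes, since a passage across the whole band is itself a 4-fold difference. Over all 6320 genes tested, 83.3% were at the level in 3 M at 84 h, a larger share than in any of these groups. The groups were chosen for being off the level in 3 M at 36 h. That choice favours levels nearer to 0 M in another library, so the counts are a description.

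Some of the risen genes were next to each other in the ID numbering, which the rule did not use. Of the 528, 143 (27.1%) had a risen gene as the next or the previous ID. Of 369 risen genes whose next ID was also tested, the next gene had risen in 83 cases (22.5%), where 8.35% of all genes tested had risen. For the fallen genes this was 19 of 168 (11.3%), where 3.54% of all genes tested had fallen. The files do not give gene positions, so neighbouring numbers are not known to be neighbouring genes, and reads shared between similar copies with neighbouring IDs could not be recognised.

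There were 15 runs of 3 or more consecutive risen IDs, with 53 genes in all, and the longest held 6. In 1 run of 6, levels lay between 160 and 3180 CPM in 3 M at 84 h and between 0.617 and 8.70 CPM in 3 M at 36 h. The same 6 genes lay between 0.278 and 8.02 CPM in 4 M and between 234 and 4260 CPM in 0 M at 84 h. Every member of this run was thus under 10 CPM in 3 M at 36 h and in 4 M, and in 3 M at 84 h 3 were at the 0 M level and 3 still below it. The other run of 6 lay between 43.3 and 759 CPM in 3 M at 84 h and between 1.91 and 56.5 CPM in 3 M at 36 h, and between 28.8 and 348 CPM in 0 M. Of its genes, 2 ended at the 0 M level and 4 above it. Its members also had positive time differences in 1 M, with log2 values between 1.74 and 4.23, as had those of the first run of 6 (0.4 to 2.53). Over the 15 runs, 32 genes were at the 0 M level at 84 h, 9 below and 12 above, beside 282, 61 and 185 of all 528 risen genes. In 6 of the 15 runs every member was 4-fold or more below 0 M in 4 M, and in 14 every member was below it to some extent, as were 483 of all 528 risen genes (91.5%). The fallen genes formed 4 runs of 3 or 4 IDs, with 14 genes, of which 13 were below the 0 M level at 84 h and 1 at it.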

How the data were processed

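The values deposited by the authors are whole-number read counts for each gene ID, not normalized, in a file for each library. Per the submitters' processing notes, TopHat2 2.0.8b and HTSeq 0.5.4p2 were used. The build, annotation, strand setting and filters used: not given in the sources used here. Paralogs and overlapping genes are therefore uncertain. Genes not listed in a file were taken as 0 counts. TMM factors (edgeR 4.0.16, R 4.3.3) from all 6 libraries set the scale, and log2 CPM used a prior count of 2. A gene entered with at least 10 CPM in 1 or both 3 M libraries, and the same 6320 genes served as background throughout. Exact Clopper-Pearson 95% intervals (SciPy 1.17.1) rest on the 2 counts compared and cover counting error only. PCR copies of a molecule were not told apart, so the intervals can be too narrow even for that. The 4-fold rule and the intervals were run on simulated data as a check of the code. The simulated counts held counting error only, with no variation between cultures, and the rule met no true difference close to 4-fold. The check therefore does not measure error in these libraries. The named genes are those with the largest rise at and below the 0 M level, and the largest fall at and above it, with intervals beyond 2-fold. Members, rules and alternatives were chosen with earlier results of these data known. The alternatives were DESeq2 1.42.0 size factors, total counts, other priors, filters and bounds.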

Additional observations from a re-analysis of the deposited data

Results flagged for a closer look

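Some genes differed with time in opposite directions in the 2 salt concentrations that were sampled at both times. Of the 528 genes that rose in 3 M, 37 (7.01%) decreased 4-fold or more between these times in 1 M, beside 2.71% of all genes tested. Their median level was 76.8 CPM at 84 h and 3.7 CPM at 36 h in 3 M, and 9.22 CPM at 84 h and 57.6 CPM at 36 h in 1 M. In 0 M at 84 h it was 30.2 CPM, and in 3 M at 84 h 24 of the 37 stood above the 0 M level, 11 at it and 2 below. Another 16 genes, of the 224 that fell in 3 M (7.14%), increased 4-fold or more in 1 M, beside 2.74% of all genes tested. Their median level was 4.56 CPM at 84 h and 56.9 CPM at 36 h in 3 M, and 145 CPM at 84 h and 17.7 CPM at 36 h in 1 M. Of the 16, 12 ended below the 0 M level in 3 M and 4 at it. Over all genes tested, 83.3% were at that level in 3 M at 84 h, 8.1% below and 8.59% above. The libraries of 3 M and 1 M chose these genes, so the opposite directions of their medians follow from the choice. With 1 library per condition the difference between the 2 time differences was not tested.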

How the results depend on the processing

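Of 84 counts recomputed under alternatives, 70 stayed within 1.5 times of the reported value. Genes at the 0 M level and genes that reached it from outside were counted separately. Wherever both were computed these counts were equal, except with the 3-fold bound, so the 84 are not all separate results. The 528 risen genes ranged between 437 and 723, and the 224 fallen genes were 148 with total counts and otherwise up to 284. Fallen genes at the 0 M level (88, all from above it) were 48 with total counts and 57 with counting intervals wholly beyond 4-fold. They were 36 with a 1.5-fold bound for the level and 134 with 1 M at 84 h in place of 0 M. With a 3-fold bound they were 155, of which only 63 came from above that bound. Risen genes at the level (282, all from below it) were 164 with the 1.5-fold bound. With the 3-fold bound they were 389, of which 333 came from below that bound. Risen genes with a risen neighbour in the numbering were 239 with a minimum of 1 CPM and 254 with no filter, and fallen genes with a fallen neighbour were 51 with no filter, where more genes were tested. TMM factors from the 2 libraries compared were added after seeing the data. The 4 named genes kept their values within their counting intervals under other scalings and a prior count of 0.5. No paired analysis was possible because each condition has 1 library. Depth limits the few genes near 3 counts, and the lack of replicates limits every difference.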
